A study of Homo sapiens with 8 samples.

Results

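The genes described here are 42 neighbours on the short arm of human chromosome 9, from DOCK8 near the telomere to BNC2, with JAK2, CD274 and PDCD1LG2 among them. They were taken by symbol from the 18417 genes of the array table, with 1 probe set per gene, the one with the highest mean over the 8 arrays. All 42 were measured, 41 under the listed symbol and KIAA2026 under its current symbol, BRD10. The stretch was picked because it was shifted between the cell lines. The line differences are therefore given as a description, without a test, while the response to the drug COH29 is tested. Between DOCK8 and BNC2 lie 11 further measured genes that are not members.

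The arrays hold RNA of HCC1937, a breast cancer cell line deficient in BRCA1 (it carries a truncated form), and of HCC1937+BRCA1, the same line with wild-type BRCA1 added. The 4 groups, of 2 arrays each, were HCC1937+BRCA1 with COH29, HCC1937+BRCA1 control, HCC1937 with COH29 and HCC1937 control. COH29, which inhibits the deoxynucleotide-making enzyme ribonucleotide reductase, was used at 10 µM for 24 h. All cells share the HCC1937 background. The labels name no vehicle for the controls, and do not say whether the derived line is 1 clone or whether replicates were separate cultures. P-values thus measure only the spread between these arrays, which may be technical. An array of bulk RNA cannot tell fewer cells that express a gene from less RNA per cell.

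Genes that lie side by side share their chromosome arm but not, in general, their function. This stretch holds JAK2, the tyrosine kinase that passes signals from cytokine receptors to STAT transcription factors. It also holds the adjacent genes of both ligands of PD-1 (an inhibitory receptor of T cells), CD274 or PD-L1 and PDCD1LG2 or PD-L2. In some lymphomas and triple-negative breast cancers the region is gained as a block. Interferon gamma induces CD274 through JAK1, JAK2 and the transcription factor IRF1. DNA copy number was not analysed here.

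The sequences before the starts of 3 members are shown because they carry matches to elements of interferon, hypoxia or stress responses. They are RefSeq sequences of GRCh38.p14, the 250 bases before an annotated start, on the plus strand, with matches in capitals. Each motif was searched on both strands. The window of CD274, chr9:5450292-5450541, holds 2 overlapping matches to the core of the interferon-stimulated response element (GAAA, any 2 bases, GAAA). It also holds 1 match to the STAT-binding GAS element, TTCNNNGAA. The window of KDM4C, chr9:6757723-6757972, holds 4 matches to the core of the hypoxia response element, ACGTG, which overlap in pairs. The window of JAK2, chr9:4984140-4984389, holds 1 match to the CHOP-ATF4 element TGATGNAA, and the other windows of its 4 annotated starts hold none.
CD274: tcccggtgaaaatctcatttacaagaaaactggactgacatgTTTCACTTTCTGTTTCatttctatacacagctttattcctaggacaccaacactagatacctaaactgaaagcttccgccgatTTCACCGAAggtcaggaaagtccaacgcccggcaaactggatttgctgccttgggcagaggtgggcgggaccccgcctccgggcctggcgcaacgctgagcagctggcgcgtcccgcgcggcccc
KDM4C: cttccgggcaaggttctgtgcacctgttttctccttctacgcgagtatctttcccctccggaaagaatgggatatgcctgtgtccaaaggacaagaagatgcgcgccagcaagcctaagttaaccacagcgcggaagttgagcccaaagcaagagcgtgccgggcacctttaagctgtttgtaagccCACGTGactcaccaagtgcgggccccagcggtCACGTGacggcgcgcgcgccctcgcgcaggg
JAK2: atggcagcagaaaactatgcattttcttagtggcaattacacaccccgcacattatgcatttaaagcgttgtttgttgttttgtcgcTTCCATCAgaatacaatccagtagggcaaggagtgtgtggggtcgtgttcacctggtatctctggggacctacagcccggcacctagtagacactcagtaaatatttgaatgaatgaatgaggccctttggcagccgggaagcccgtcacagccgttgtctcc

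RefSeq windows were found for 40 of the 42 members, 73 windows in all, the others being PDCD1LG2 and CDC37L1. The interferon element core lay in windows of 3 members (CD274, NFIB and SMARCA2), which is 4.11% of the members' windows, and in 3.02% of all 35116 windows. TTCNNNGAA lay in windows of 4 members, 5.48% of theirs and 6.57% of all. ACGTG lay in windows of 9 members, 13.7% of theirs and 18.5% of all. TGATGNAA lay in windows of 6 members, 8.22% of theirs and 3.14% of all. A match describes letters and is not a binding site.

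Values are log2 intensities, on which a step of 1 is a 2-fold difference. The arrays of a group correlated at 0.996 to 0.9974 across genes. The 5 epithelial markers lay between percentiles 52.5 and 99.8 of the genes' mean levels, the 3 measured basal mammary markers between 65.7 and 87.7, the 4 luminal ones between 9.61 and 82.9, and the 5 fibroblast and vessel ones between 19.7 and 50.5. Of the 4 measured blood cell markers, PTPRC, CD3E and HBB lay at percentiles 3.01 to 15.7, and CD14 at 57.5. CD14 averaged 6.72 in HCC1937+BRCA1 and 9.48 in HCC1937 with COH29, and 6.84 in HCC1937+BRCA1 and 10.61 in HCC1937 without it. The basal keratin gene KRT5 averaged 9.11 in HCC1937+BRCA1 and 10.72 in HCC1937 with COH29, and 9.28 in HCC1937+BRCA1 and 10.98 in HCC1937 without it. The basal marker EGFR went the other way, at 10.81 in HCC1937+BRCA1 and 10.06 in HCC1937 with COH29. Without COH29, EGFR averaged 10.84 in HCC1937+BRCA1 and 10.33 in HCC1937. KRT14 averaged 9.04 in HCC1937+BRCA1 and 9.09 in HCC1937 with COH29, and 8.69 and 8.84 without it. The vessel marker PECAM1 averaged 6.63 with COH29 and 8.11 without it in HCC1937+BRCA1, and 7.35 with COH29 and 9.30 without it in HCC1937. The rest of that list, COL1A1, COL1A2, PDGFRB and VWF, averaged slightly higher with COH29 in both lines. The vessel marker VWF averaged 5.93 with COH29 and 5.88 without it in HCC1937+BRCA1, and 5.98 and 5.73 in HCC1937. The part of these markers' differences in the results below was not tested. BRCA1 itself averaged 10.16 in HCC1937+BRCA1 and 10.43 in HCC1937 with COH29, and 10.46 in HCC1937+BRCA1 and 10.55 in HCC1937 without it. Its probe set therefore does not check the line labels.

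Most genes of the stretch were higher in HCC1937+BRCA1 than in HCC1937, with and without COH29. The median log2 difference over the 42 members, HCC1937+BRCA1 minus HCC1937, was 0.49 with COH29 and 0.66 without it, against 0.00 and -0.01 over all genes tested. With COH29, both HCC1937+BRCA1 arrays were above both HCC1937 arrays for 31 members and below them for 2, where 28.6% of all genes were higher in this way and 32.0% lower. Without COH29 the counts were 32 and 4, where 31.8% of all genes were higher and 31.8% lower. A difference over 0.5 was measured for 20 members with COH29 and 23 without, against 7.81% and 9.07% of all genes. These counts follow from how the stretch was chosen. On all 4 HCC1937+BRCA1 arrays 23 members lay above all 4 HCC1937 arrays, and 1, DOCK8, lay below them. Over all genes 12.7% and 13.1% did so.

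The 14 members below the 30th percentile of mean level had median differences of 0.04 with COH29 and 0.02 without. That level is the mean over all 8 arrays, which a line difference itself raises, so the split is not independent of the difference. Of the other 28 members, CD274, PDCD1LG2, MPDZ, CCDC171 and BNC2 had an HCC1937 mean below the lowest level kept, 6.59, in at least 1 state. No detection call was used, so a low probe set may report little transcript, and a fold against such a value is one of measured intensities only. Among the 14, RFX3 stood apart with differences of 0.86 and 1.55.

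**Figure D1:**
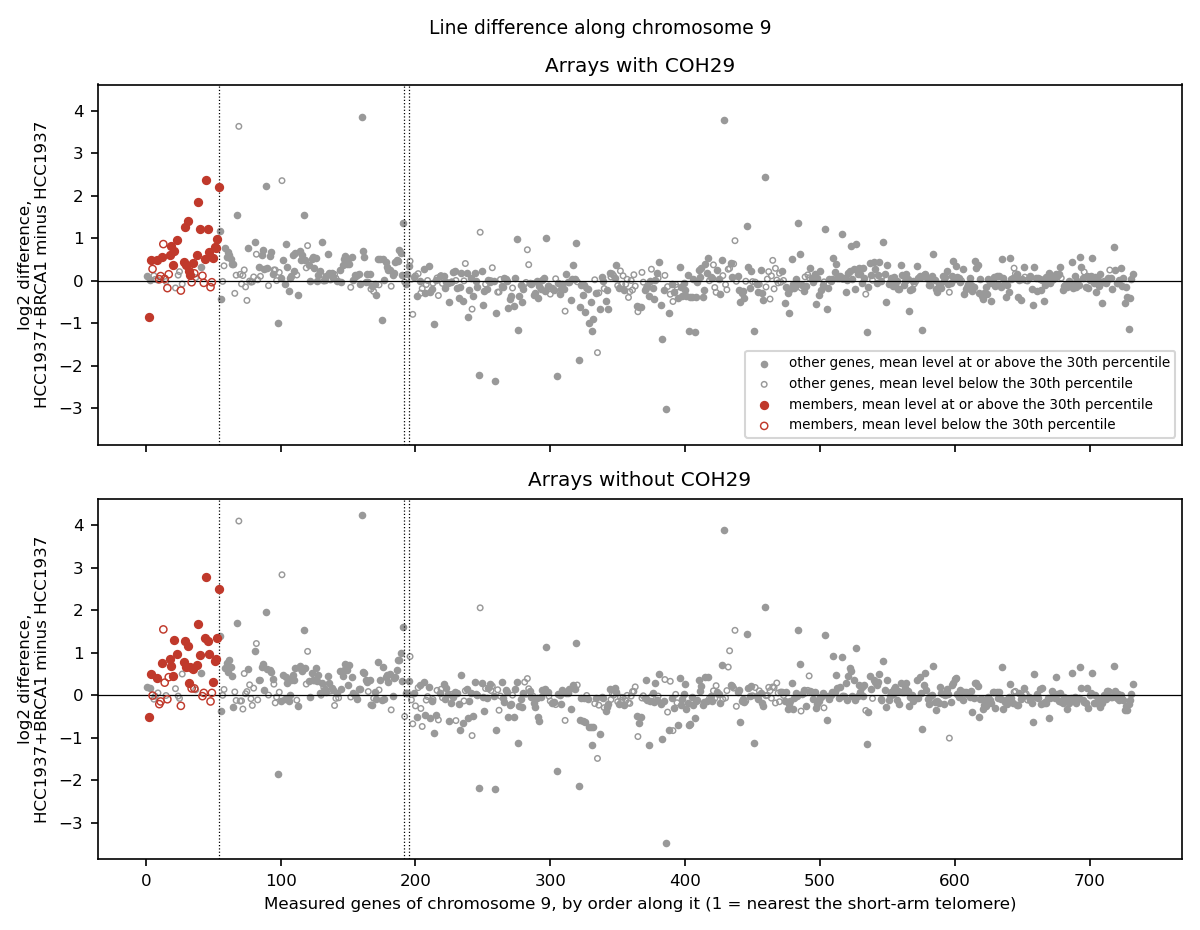
Log2 difference between the lines, HCC1937+BRCA1 minus HCC1937, for the measured genes of chromosome 9 in their order along it, with COH29 (top) and without (bottom). Members are red, open symbols are genes with low mean levels (under the 30th percentile), and dotted lines mark BNC2 and the ends of the grouped short-arm and long-arm genes. The members lie mostly above 0, with a median of 0.49 with COH29 and 0.66 without, the rest of the short arm also lies above 0 but nearer to it, and long-arm genes scatter around 0.

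The difference did not end at BNC2. Of the 137 measured genes from CNTLN to ANKRD18A, the rest of the short arm, 106 were higher in HCC1937+BRCA1 with COH29 and 104 without, with median differences of 0.25 and 0.33. Those counts are 77.4% and 75.9% of these genes, where 49.4% and 48.4% of all genes were higher. On the long arm, from PGM5 onwards, the 537 measured genes had medians of -0.03 and -0.04. The medians of the other 22 chromosomes ran from -0.24 to 0.14 with COH29 and from -0.24 to 0.13 without. Chromosome 9 as a whole had a median of 0.02 in each state. Medians of whole chromosomes thus do not show whether other chromosomes hold shifted stretches. The contrast between the members and the remaining short arm was not tested, since the members were chosen by this difference.

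At the ends of the stretch the values were mixed. DOCK8, at the telomeric end, differed by -0.85 ± 0.09 with COH29 and -0.50 ± 0.09 without it (SE of the fit, n = 2 arrays per group, as throughout). Its neighbour KANK1 differed by 0.50 ± 0.10 with COH29 and 0.49 ± 0.10 without it. WASHC1, the measured gene distal of DOCK8, differed by 0.10 and 0.19. At the other end BNC2 differed by 2.20 ± 0.09 with COH29 and 2.50 ± 0.09 without it. The next genes towards the centromere were CNTLN (1.17 and 1.38), SH3GL2 (-0.42 and -0.38), ADAMTSL1 (-0.02 and 0.00), SAXO1 (0.35 and 0.14) and RRAGA (0.76 and 0.63). The members thus stopped next to a further gene that was higher in HCC1937+BRCA1. The 11 other measured genes inside the stretch had median differences of 0.03 with COH29 and 0.05 without it. Of these 11 genes, 8 lay above 0 with COH29 and 6 without it, where 49.4% and 48.4% of all genes did. Below the 30th percentile lay 9 of them. DMAC1, at percentile 94.0, differed by 0.32 and 0.51, and DOCK8-AS1, at percentile 30.7, by 0.03 and 0.18.

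**Figure D2:**
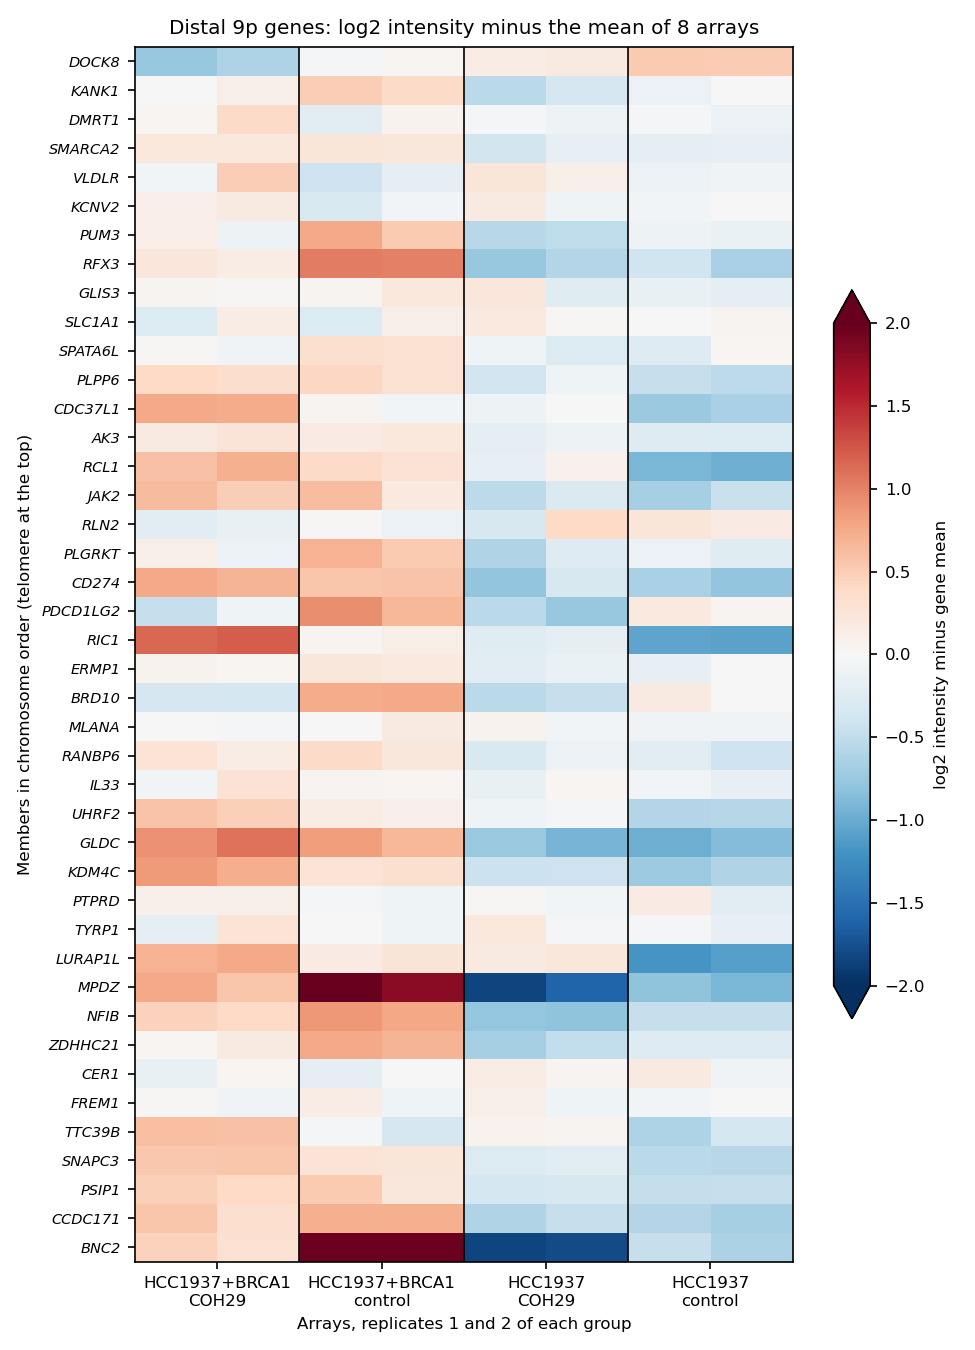
Heat map of the 42 members in chromosome order (rows) on the 8 arrays (columns), as log2 intensity relative to the mean of that gene over the arrays. MPDZ and BNC2 show the widest range, and DOCK8 has the opposite colours to most other members.

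The immune and cytokine genes include JAK2 and the PD-1 ligand genes in the middle of the stretch. JAK2 measured 8.90 and 8.76 in HCC1937+BRCA1 against 7.75 and 7.99 in HCC1937 with COH29. The control arrays gave 8.89 and 8.46 in HCC1937+BRCA1 against 7.61 and 7.82 in HCC1937. All 4 arrays of HCC1937+BRCA1 lay above all 4 of HCC1937. The difference was 0.96 ± 0.15 with COH29 and 0.96 ± 0.15 without it, or 1.95-fold and 1.94-fold. CD274 measured 7.98 and 7.90 in HCC1937+BRCA1 against 6.43 and 6.91 in HCC1937 with COH29. In control cells it measured 7.77 and 7.79 in HCC1937+BRCA1 against 6.57 and 6.43 in HCC1937. Again the lines did not overlap, and the differences of 1.27 ± 0.14 with COH29 and 1.28 ± 0.14 without it correspond to 2.41-fold and 2.43-fold.

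PDCD1LG2, the gene beside CD274, measured 6.13 and 6.51 in HCC1937+BRCA1 against 6.06 and 5.84 in HCC1937 with COH29. Without COH29 it measured 7.52 and 7.26 in HCC1937+BRCA1 against 6.79 and 6.66 in HCC1937. The HCC1937+BRCA1 arrays were the higher ones in each state, by 0.37 and 0.67, and the COH29 arrays of both lines lay below all control arrays. These COH29 arrays also lay below the level of 6.59 named above, in both lines. DOCK8 encodes a guanine nucleotide exchange factor of immune cells. It measured 7.75 and 7.90 in HCC1937+BRCA1 against 8.66 and 8.70 in HCC1937 with COH29. The control arrays gave 8.49 and 8.56 in HCC1937+BRCA1 against 9.04 and 9.02 in HCC1937. It was the member whose HCC1937+BRCA1 arrays were all the lower ones. The alarmin gene IL33 lay at percentile 0.505 of the mean levels and the hormone gene RLN2 at 16.3. They differed by 0.17 and 0.16 (IL33) and -0.23 and -0.25 (RLN2). RLN2 has a close paralog next to it, RLN1 (-0.08 and 0.50), and the probe sets of both may share signal, so both are uncertain.

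Of the 11 chromatin and transcription genes, 11 were higher in HCC1937+BRCA1 with COH29 and 10 without, with median differences of 0.77 and 0.81. Over all genes 49.4% were higher with COH29 and 48.4% without. The members were chosen for this shift, so the counts say nothing about this class of genes. BNC2, which encodes a zinc finger protein, measured 8.40 and 8.24 in HCC1937+BRCA1 against 6.10 and 6.14 in HCC1937 with COH29. In control cells it measured 9.90 and 9.90 in HCC1937+BRCA1 against 7.48 and 7.31 in HCC1937. The measured intensities were 4.59-fold and 5.67-fold apart, second in size among the members to MPDZ, and the HCC1937 arrays with COH29 lay below 6.59. The transcription factor gene NFIB differed by 1.21 and 1.28 and KDM4C, a histone demethylase gene, by 1.20 and 0.96. PSIP1, a chromatin reader gene, differed by 0.77 and 0.85, SNAPC3, for a subunit of the complex that activates small nuclear RNA genes, by 0.80 and 0.81, and UHRF2, a ubiquitin ligase gene, by 0.59 and 0.70. All of these genes were higher in HCC1937+BRCA1 in both states. SMARCA2, for an ATPase of the SWI/SNF remodelling complex, differed by 0.48 and 0.41 and the bromodomain gene BRD10 by 0.15 and 0.65. RFX3, for a transcription factor of ciliogenesis, measured 6.68 and 6.61 in HCC1937+BRCA1 against 5.70 and 5.86 in HCC1937 with COH29. Without COH29 it measured 7.48 and 7.47 in HCC1937+BRCA1 against 6.05 and 5.81 in HCC1937. The zinc finger gene GLIS3 (0.04 and 0.29) and the testis transcription factor gene DMRT1 (0.28 and -0.01) lay below the 30th percentile.

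Of the 14 genes of RNA processing, metabolism, transport and protein handling, 13 were higher in HCC1937+BRCA1 with COH29 and 12 without, with median differences of 0.54 and 0.73. Here too the all-gene shares were 49.4% and 48.4%, and the counts follow from how the stretch was chosen. GLDC, for the decarboxylase of the glycine cleavage system, measured 9.77 and 9.95 in HCC1937+BRCA1 against 8.11 and 7.92 in HCC1937 with COH29. The control arrays gave 9.69 and 9.51 in HCC1937+BRCA1 against 7.88 and 7.99 in HCC1937. The lines were more than 1 log2 unit apart in each state, at 3.58-fold and 3.18-fold. RIC1, part of a Golgi exchange factor, differed by 1.39 and 1.15, and RCL1, of ribosomal RNA processing, by 0.69 and 1.29. Next came CDC37L1, for an HSP90 co-chaperone (0.81 and 0.69), the lipid phosphatase gene PLPP6 (0.61 and 0.85), the palmitoyltransferase gene ZDHHC21 (0.69 and 0.97), the RNA-binding protein gene PUM3 (0.55 and 0.76) and TTC39B (0.53 and 0.31). The plasminogen receptor gene PLGRKT (0.44 and 0.79), the importin-family gene RANBP6 (0.42 and 0.61), the mitochondrial adenylate kinase gene AK3 (0.36 and 0.46) and the endoplasmic reticulum peptidase gene ERMP1 (0.23 and 0.30) followed. The glutamate transporter gene SLC1A1 (-0.17 and -0.10) and the lipoprotein receptor gene VLDLR (0.04 and -0.21) lay at percentiles 12.9 and 18.9 of the mean levels.

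Among genes of junctions, cytoskeleton and cell surface, MPDZ had the widest measured line difference of the 42. This gene for a scaffold with many PDZ domains measured 8.11 and 7.90 in HCC1937+BRCA1 against 5.51 and 5.75 in HCC1937 with COH29. In control cells it measured 9.41 and 9.15 in HCC1937+BRCA1 against 6.55 and 6.43 in HCC1937. The measured intensities were 5.18-fold and 6.91-fold apart, with the HCC1937 arrays all below the level of 6.59 named above. LURAP1L differed by 0.52 and 1.35, and CCDC171 by 0.98 and 1.33. SPATA6L (0.15 and 0.42), the receptor phosphatase gene PTPRD (0.12 and -0.02) and the basement membrane gene FREM1 (-0.03 and 0.05) lay below the 30th percentile. So did the tissue-restricted genes, at percentiles 7.91 to 24.1. They were KCNV2, for a potassium channel subunit (0.11 and -0.15), the melanocyte genes MLANA (-0.03 and 0.16) and TYRP1 (-0.05 and 0.05), and CER1, for a secreted antagonist (-0.15 and -0.15).

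**Figure D3:**
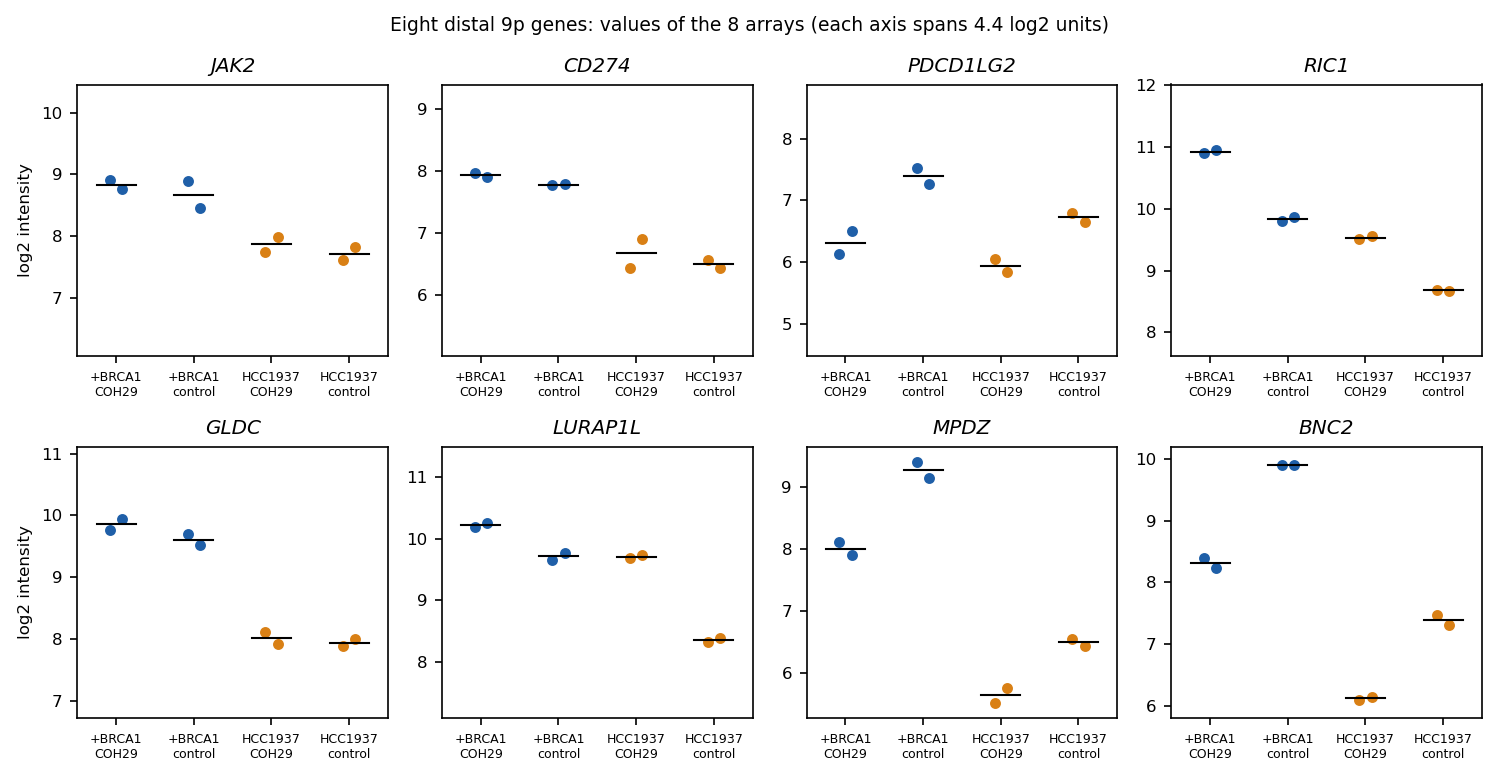
Log2 intensities of 8 members on the 8 arrays (points, blue for HCC1937+BRCA1 and orange for HCC1937) with group means (lines), every vertical axis spanning the same number of log2 units. JAK2, CD274 and GLDC differ between the lines and little with COH29, PDCD1LG2, MPDZ and BNC2 are lower with COH29 in both lines, RIC1 is higher with it, and LURAP1L is higher with it by more in HCC1937.

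COH29 moved single genes of the stretch in both directions. In HCC1937+BRCA1, 10 members rose and 11 fell (limma adjusted p under 0.05), where 13.6% of all genes rose and 20.1% fell. In HCC1937, 7 rose and 9 fell, where 10.2% and 12.5% of all genes did. The median change over the members was 0.02 in HCC1937+BRCA1 and 0.08 in HCC1937, against 0.04 and 0.04 over all genes. In all, 50.0% of the members were called in HCC1937+BRCA1 against 33.6% of all genes, and 38.1% in HCC1937 against 22.7%. Of members called in both lines, 7 rose in both and 9 fell in both, while 5 were called in HCC1937+BRCA1 but not in HCC1937, and 21 in neither. Over all genes 7.22% rose in both, 10.8% fell in both, 15.5% were called in HCC1937+BRCA1 but not in HCC1937, and 61.8% in neither. For the mean effect of both lines 9 members rose and 11 fell, where 19.3% and 22.8% of all genes did, 42.1% in all. Each line's effect shares its control arrays with the line difference without COH29, and its COH29 arrays with the line difference with COH29. Its p-values are thus not independent of how the stretch was chosen. The mean effect is weighted so that both line differences cancel. With arrays shifted to one median, 54.4% of all calls in HCC1937+BRCA1 were higher in place of 40.3%, and 58.8% in place of 45.9% for the mean effect. Under that scaling 11 members rose and 11 fell in HCC1937+BRCA1.

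**Figure D4:**
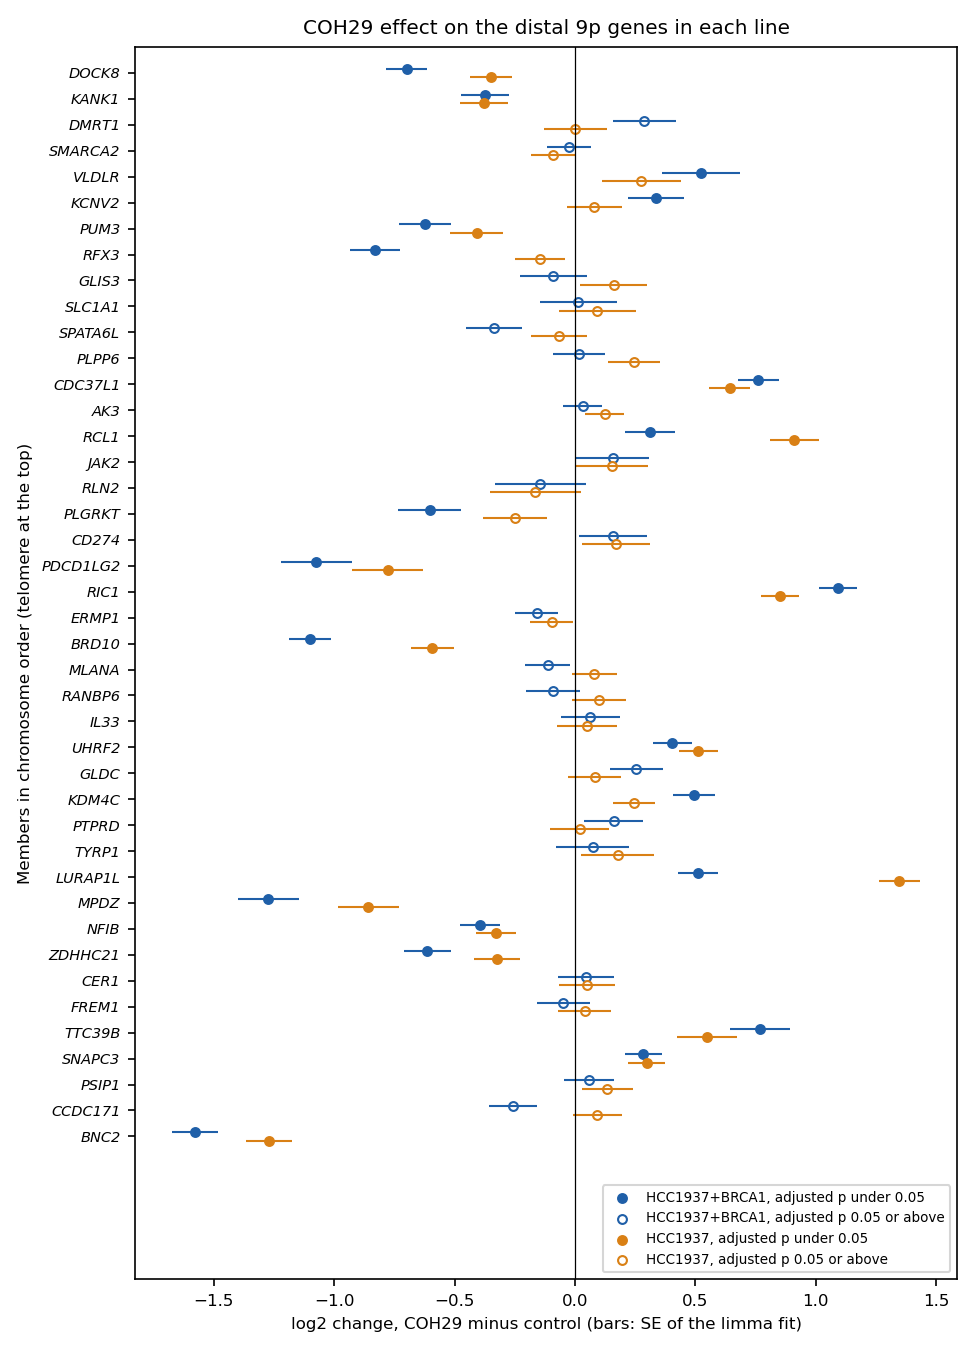
Log2 change with COH29 (COH29 minus control, with the SE of the limma fit) for the 42 members in chromosome order, in HCC1937+BRCA1 (blue) and in HCC1937 (orange), filled where the adjusted p was under 0.05. Some neighbouring genes move in opposite directions, such as PDCD1LG2 and RIC1, and others together, such as MPDZ, NFIB and ZDHHC21. The deepest fall is that of BNC2.

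The PD-1 ligand genes gave different results under COH29. PDCD1LG2 fell by 1.07 in HCC1937+BRCA1 (SE 0.15, limma adjusted p = 0.000558) and by 0.78 in HCC1937 (SE 0.15, adjusted p = 0.00513). Its COH29 arrays lay below 6.59 in both lines, so the size of the fall is one of measured intensities only. The HCC1937 call ended without moderation of the variances (adjusted p = 0.0715). CD274 was at 0.16 ± 0.14 in HCC1937+BRCA1 (limma adjusted p = 0.407, 95% interval -0.16 to 0.48). In HCC1937 the value was 0.17 ± 0.14 (limma adjusted p = 0.426, interval -0.15 to 0.49). Without HCC1937 COH29 replicate 1 the CD274 change passed the test in HCC1937, at 0.41 (limma adjusted p = 0.0393). JAK2 was at 0.16 in HCC1937+BRCA1 (interval -0.19 to 0.50) and 0.15 in HCC1937 (interval -0.19 to 0.49), with limma adjusted p = 0.448 and 0.515. DOCK8 fell by 0.70 in HCC1937+BRCA1 and 0.35 in HCC1937 (adjusted p = 0.000315 and 0.0182). IL33 and RLN2 did not pass the test in either line. Without HCC1937 COH29 replicate 2, RLN2 passed in HCC1937 (adjusted p = 0.0163).

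Of the chromatin and transcription genes, BNC2 had the largest change of the members in HCC1937+BRCA1. It fell by 1.58 there (SE 0.09, limma adjusted p = 9.36e-06), or 2.98-fold, and by 1.27 in HCC1937 (adjusted p = 6.17e-05). CNTLN, the gene next to it and no member, fell by 1.56 and 1.35. BRD10 fell by 1.10 in HCC1937+BRCA1 and 0.59 in HCC1937 (adjusted p = 3.36e-05 and 0.00154) and NFIB by 0.39 in HCC1937+BRCA1 and 0.33 in HCC1937 (adjusted p = 0.00538 and 0.0194). RFX3 fell by 0.83 in HCC1937+BRCA1 (adjusted p = 0.000362) and was at -0.15 in HCC1937 (adjusted p = 0.358). Set against each other, the RFX3 effects of the lines missed the threshold (-0.68, adjusted p = 0.078). UHRF2 rose by 0.40 in HCC1937+BRCA1 and 0.51 in HCC1937 (adjusted p = 0.00459 and 0.00213) and SNAPC3 by 0.28 in HCC1937+BRCA1 and 0.30 in HCC1937 (adjusted p = 0.0199 and 0.0226). KDM4C rose by 0.49 in HCC1937+BRCA1 (adjusted p = 0.00242) and was at 0.25 in HCC1937 (adjusted p = 0.0775). SMARCA2, PSIP1, DMRT1 and GLIS3 did not pass in either line.

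Among the genes of RNA, metabolism and protein handling, RIC1 rose by 1.09 ± 0.08 in HCC1937+BRCA1 (limma adjusted p = 2.22e-05) and by 0.85 ± 0.08 in HCC1937 (adjusted p = 0.00016). CDC37L1 rose by 0.76 in HCC1937+BRCA1 and 0.64 in HCC1937 (adjusted p = 0.000203 and 0.00092) and TTC39B by 0.77 in HCC1937+BRCA1 and 0.55 in HCC1937 (adjusted p = 0.00141 and 0.0122). RCL1 rose by 0.31 in HCC1937+BRCA1 and 0.91 in HCC1937 (adjusted p = 0.0454 and 0.000417). In the other direction PUM3 fell by 0.62 in HCC1937+BRCA1 and 0.41 in HCC1937 (adjusted p = 0.00222 and 0.0264) and ZDHHC21 by 0.61 in HCC1937+BRCA1 and 0.32 in HCC1937 (adjusted p = 0.0012 and 0.0401). PLGRKT fell by 0.60 in HCC1937+BRCA1 (adjusted p = 0.00707) and was at -0.25 in HCC1937 (adjusted p = 0.217). VLDLR, with a level at percentile 18.9, rose by 0.52 in HCC1937+BRCA1 (adjusted p = 0.0351) and was at 0.28 in HCC1937 (adjusted p = 0.265). AK3, ERMP1, GLDC, PLPP6, RANBP6 and SLC1A1 did not pass in either line, with values from -0.16 to 0.25.

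Of the junction and cytoskeleton genes, MPDZ fell by 1.27 in HCC1937+BRCA1 (SE 0.13, limma adjusted p = 0.000101) and by 0.86 in HCC1937 (adjusted p = 0.00146). KANK1, for a regulator of actin, fell by 0.37 in HCC1937+BRCA1 and 0.38 in HCC1937 (adjusted p = 0.0192 and 0.026). LURAP1L rose by 0.51 in HCC1937+BRCA1 and 1.35 in HCC1937 (adjusted p = 0.00158 and 3.07e-05). KCNV2 rose by 0.34 in HCC1937+BRCA1 (adjusted p = 0.0498), with a level at percentile 24.1. SPATA6L, CCDC171, PTPRD, FREM1, MLANA, TYRP1 and CER1 did not pass in either line.

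In the test of the difference between the lines' COH29 effects, LURAP1L alone of the 42 members was called (HCC1937+BRCA1 minus HCC1937, -0.84 ± 0.12, limma adjusted p = 0.0188). Of the 42 members 0 were called higher and 1 lower, where 0.543% of all genes were called higher, 0.413% lower and 0.956% in all. This quantity equals the line difference with COH29 minus that without, so it is built from the values by which the stretch was chosen, and its p-values are not independent of that choice. The signed line difference was lower with COH29 than without for 28 of the 42 members. These include DOCK8, whose negative difference was larger in size with COH29. The difference of effects was above 0 for 14 members, and over all genes for 8275 of 18417. LURAP1L measured 10.19 and 10.26 with COH29 and 9.66 and 9.76 without it in HCC1937+BRCA1. In HCC1937 it measured 9.69 and 9.73 with COH29 and 8.32 and 8.40 without. The COH29 arrays were the higher ones in each line. RCL1 (-0.60, adjusted p = 0.112) and BRD10 (-0.51, adjusted p = 0.113) had differences of effects that did not pass. Without any 1 of the 8 arrays the LURAP1L call ended, with adjusted p between 0.0541 and 0.0899. For JAK2 the difference of effects was 0.00 (95% interval -0.48 to 0.49), and for CD274 it was -0.01 (95% interval -0.46 to 0.44).

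Several calls did not hold when 1 array was left out, which also leaves 1 array in a group and fewer degrees of freedom. The NFIB, PUM3 and SNAPC3 calls in HCC1937 ended whichever HCC1937 array was left out. Their changes there stayed at -0.34 to -0.32 (NFIB), -0.43 to -0.39 (PUM3) and 0.28 to 0.32 (SNAPC3). In HCC1937+BRCA1 the RCL1 and SNAPC3 calls ended whichever array of that line was left out. Their changes in that line stayed at 0.25 to 0.37 (RCL1) and 0.27 to 0.30 (SNAPC3). The all-gene counts in HCC1937 fell too, as given below. In HCC1937, 9 members instead of 16 were called when control replicate 1 was left out, 10 when control replicate 2 was, and 11 when COH29 replicate 1 was. The number that fell there dropped to 4 in each of these cases. In HCC1937+BRCA1 the number that rose dropped to 6 when COH29 replicate 2 or control replicate 1 was left out. Of the 21 members called in HCC1937+BRCA1, 15 were called in every alternative. The exceptions and their highest adjusted p with 1 array left out were KANK1 (0.113), VLDLR (0.202), KCNV2 (0.293), RCL1 (0.2), PLGRKT (0.0564) and SNAPC3 (0.0805). Of the 16 called in HCC1937, 8 were called in every alternative. PDCD1LG2 is described above, and the other exceptions were DOCK8 (0.0996), KANK1 (0.163), PUM3 (0.122), NFIB (0.0988), ZDHHC21 (0.209), TTC39B (0.0985) and SNAPC3 (0.117). Leaving out 1 array also brought DMRT1, SPATA6L and CCDC171 past the test in HCC1937+BRCA1, and GLIS3 and PLPP6 in HCC1937, with lowest adjusted p of 0.0429, 0.0364, 0.0436, 0.0388 and 0.0391.

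The partners of the immune genes were read from lists. Of 22 measured interferon and JAK-STAT genes, 6 rose and 4 fell with COH29 in HCC1937+BRCA1, and 2 rose and 4 fell in HCC1937, with median changes of -0.03 and -0.03 against 0.04 and 0.04 over all genes. Over all genes 13.6% rose and 20.1% fell in HCC1937+BRCA1, and 10.2% rose and 12.5% fell in HCC1937. The JAK1 kinase gene rose by 0.69 in HCC1937+BRCA1 and 0.50 in HCC1937 (adjusted p = 0.000324 and 0.00295). SOCS1, for a feedback inhibitor of JAK signalling, rose by 0.75 in HCC1937+BRCA1 (adjusted p = 0.00154) and was at 0.37 in HCC1937 (limma adjusted p = 0.0589). The receptor chain gene IFNGR2 fell by 0.51 in HCC1937+BRCA1 and 0.60 in HCC1937 (adjusted p = 0.00225 and 0.00146) and PIAS1 by 0.35 in HCC1937+BRCA1 and 0.39 in HCC1937 (adjusted p = 0.00795 and 0.007). The list's median line difference was -0.20 with COH29 and -0.11 without.

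Of 17 measured partners and regulators of the PD-1 ligands, 3 rose and 4 fell in HCC1937+BRCA1, and 1 rose and 3 fell in HCC1937, beside the same all-gene shares of 13.6% and 20.1%, and of 10.2% and 12.5%. Their median changes were -0.13 and 0.08. RGMB, whose product binds PD-L2, rose by 0.53 in HCC1937+BRCA1 and 0.72 in HCC1937 (adjusted p = 0.00131 and 0.000454). VTCN1, of the same B7 family as the PD-1 ligands, fell by 0.81 in HCC1937+BRCA1 and 0.73 in HCC1937 (adjusted p = 0.000396 and 0.00122), and COPS5, whose product removes ubiquitin from PD-L1, by 0.40 in HCC1937+BRCA1 and 0.30 in HCC1937 (adjusted p = 0.0105 and 0.0497). IRF1, which is in both lists, measured 9.09 and 9.17 in HCC1937+BRCA1 against 10.03 and 10.13 in HCC1937 with COH29. Without COH29 it measured 8.67 and 8.77 in HCC1937+BRCA1 against 9.72 and 9.86 in HCC1937. IRF1 was thus lower in HCC1937+BRCA1, by -0.95 and -1.07 as a signed difference, and it rose by 0.41 with COH29 in HCC1937+BRCA1 (adjusted p = 0.00846) and was at 0.28 in HCC1937 (adjusted p = 0.0554). The list's median line difference was -0.11 in either state.

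Of 31 measured paralogs of the members on other chromosomes, 3 rose and 9 fell in each line, where 13.6% of all genes rose and 20.1% fell in HCC1937+BRCA1, and 10.2% and 12.5% in HCC1937. Their median line difference was 0.00 in either state. Of the NFIB paralogs, NFIA fell by 1.09 in HCC1937+BRCA1 and 0.48 in HCC1937 (adjusted p = 3.33e-05 and 0.00441) and NFIC by 0.62 in HCC1937+BRCA1 and 0.59 in HCC1937 (adjusted p = 0.000618 and 0.00143). The MPDZ paralog PATJ fell by 0.42 in HCC1937+BRCA1 and 0.70 in HCC1937 (adjusted p = 0.00343 and 0.000421).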

How the data were processed

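Gene expression was measured on 8 Affymetrix arrays of established cell lines, 2 per group, grouped by the sample labels. The authors deposited log2 intensities of 33297 probe sets per array. The submitters' processing notes list RMA and Partek. The sorted arrays differed by at most 0.297, so a shift common to all genes of an array would not show. The precision is limited by how few arrays there are. No source used here gives the build of the array annotation.

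Probe sets with 1 annotated gene (19460) were kept, those with several (1754) or none (12083) were left out, and the highest-mean probe set stood for each gene. Of the members, PSIP1 had more than 1. Gene order and current symbols came from RefSeq's GRCh38.p14 table.

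With limma 3.58.1 in R 4.3.3, group means were estimated for 18417 genes over all arrays, with Benjamini-Hochberg adjustment across all genes. The fit was tested on simulated data. Python 3.11.15 with pandas 2.3.3 and matplotlib 3.10.9 made the tables and figures. The members, gene lists and tests were chosen with earlier results of these data known. Named genes are all members, their measured neighbours, BRCA1 and, of each list, the 4 called genes with the smallest p for the mean COH29 effect. The alternatives were a filter on low genes, 2 other array scalings, 2 other variance models, a replicate block, averaged probe sets, a fit to only the compared arrays, and each array left out in turn. A block with crossed replicate numbers was added after seeing the data.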

Additional observations from a re-analysis of the deposited data

Results flagged for a closer look

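LURAP1L stood out because its COH29 effect differed between the lines in the test of that difference, -0.84 on the log2 scale (effect in HCC1937+BRCA1 minus effect in HCC1937, limma adjusted p = 0.0188). It rose in both lines. Over the alternatives the difference ran from -0.89 to -0.76, and the call held in 7 of 16 of them. The difference equals the line difference with COH29 (0.52) minus that without it (1.35), values by which the stretch was chosen, so its p is not independent of that choice.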

How the results depend on the processing

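With 1 array left out, the count of members called with COH29 ran from 15 to 22 in HCC1937+BRCA1, from 9 to 16 in HCC1937 and from 19 to 22 for the mean effect. For the difference of effects, the 1 called member became 3 with trend and robust moderation, which added RCL1 (adjusted p = 0.00968) and BRD10 (adjusted p = 0.0103). It became 0 without moderation, and 0 to 0 with 1 array left out. Over all genes, the 176 calls of that test became 351 without genes below the 30th percentile, 566 with trend and robust moderation, 3 without moderation, 106 with the replicate block, and 41 to 67 with 1 array left out. The all-gene counts under that last change ran from 4171 to 6400 in HCC1937+BRCA1, from 2336 to 4012 in HCC1937 and from 6121 to 8061 for the mean effect. The cause of these changes was not tested. The median line difference of the members became 0.65 with COH29 and 0.83 without when low genes were left out, which keeps 28 of the 42 members. It ran from 0.43 to 0.55 with COH29 and from 0.59 to 0.71 without when 1 array was left out. No member's COH29 result was reversed from a call under any alternative. Fitting only the compared arrays does not apply to the mean effect and the difference of effects. With the replicate block, 19 members were called in HCC1937+BRCA1, 15 in HCC1937, 20 for the mean effect and 1 for the difference of effects. The numbers were not taken to pair the arrays, since the deviations of same-numbered arrays correlated at 0.26 between the HCC1937+BRCA1 groups, at 0.037 between the HCC1937 groups and at -0.204 to -0.086 between the lines. With numbers crossed between the lines, a setting chosen after seeing the data, 23, 16, 21 and 1 members were called.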
